A study of Homo sapiens with 6 samples.

Results

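Retinoid binding and metabolism genes were followed in RH36 cells after transfection of pre-miR-27a. The genes are CRABP1, CRABP2, CYP26A1, CYP26B1, ALDH1A1, ALDH1A2, ALDH1A3, RDH10 and DHRS3, and every array probe that carries one of these 9 gene names was taken, which gave 14 probes of the 41000 on the array and 9 of its 30484 gene names. RH36 is an embryonal rhabdomyosarcoma line, a tumour line of the skeletal muscle lineage, without the PAX3/FOXO1 fusion gene. It is 1 cell line, and all arrays carry RNA of that line. Expression was measured on 3 pre-miR-27a arrays and 3 pre-control arrays with 1 dye (Cy3), and the labels call the samples of each group biological replicates. Pre-miR-27a is a synthetic precursor that the cell turns into miR-27a, and pre-control is a negative control molecule of the same kind. The labels give 10 nM of precursor, the SiPORT reagent and 48 hours for the samples that received pre-miR-27a, whereas the study's methods name another reagent, a higher concentration and an earlier time, so the dose and time behind these arrays were not settled.

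Retinoic acid is made from vitamin A in steps that cells can control. Retinol is oxidized to retinal, which can be reduced back to retinol, and retinal is oxidized further to retinoic acid. Inside the cell retinoic acid is held by binding proteins, destroyed by hydroxylases of the CYP26 family, or passed to nuclear receptors (RAR, paired with RXR) that switch genes on. In the muscle lineage retinoic acid is known to affect the differentiation of myoblasts and of rhabdomyosarcoma cells.

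The sequence of the transfected microRNA is shown because it is the agent of the comparison. The mature strand lies on the minus strand of chromosome 19 (GRCh38.p14, RefSeq) at chr19:13836447-13836467, and capitals mark the seed, bases 2 to 8. The array has 0 probes named for it, so its level after transfection could not be read from these data.
hsa-miR-27a-3p: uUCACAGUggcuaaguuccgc

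The promoter of CYP26A1 is shown because the gene is a known direct target of the retinoic acid receptors, which bind direct repeats of a short half-site. The RefSeq window of 250 bases before to 50 bases after the start site lies on the plus strand at chr10:93073643-93073942 (GRCh38.p14). Windows were given for 8 of the 9 genes, 12 windows in all. Both strands were searched for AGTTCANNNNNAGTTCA and for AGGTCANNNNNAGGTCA. The former was in 4 of the 35116 windows of all genes (0.0114%) and, among the 12, only in this CYP26A1 window, on the strand opposite to the gene and from 90 to 74 bases before the start site. The latter was in 2 of the 35116 windows (0.0057%) and in 0 of the 12, so no match of one motif overlapped the other here. Repeats with unlike half-sites or another spacing were not searched. The windows without a match may hold such repeats, and the shares above hold only for the motifs chosen. Capitals mark the match, which is a description of letters and not a measured binding site.
CYP26A1 promoter window: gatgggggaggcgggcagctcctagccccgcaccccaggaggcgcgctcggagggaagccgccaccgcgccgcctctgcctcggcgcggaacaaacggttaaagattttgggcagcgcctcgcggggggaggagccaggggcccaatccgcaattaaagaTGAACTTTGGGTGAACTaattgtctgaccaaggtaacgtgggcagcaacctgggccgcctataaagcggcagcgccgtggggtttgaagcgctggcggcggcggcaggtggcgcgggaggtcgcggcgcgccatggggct

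With limma and Benjamini-Hochberg adjustment over all 36469 probes kept, 0 of the 14 probes had an adjusted p under 0.05, against 7.83% of all probes (3.95% higher and 3.88% lower with pre-miR-27a). SAM called 0 of the 14, unpaired or paired, where over the whole array it called only 9 probes unpaired and 3 paired. At an unadjusted p under 0.05 there were 5 of the 14, against 24.8% of all probes. The 5 were the brighter CRABP1 probe and 1 RDH10 probe, lower with pre-miR-27a, and both ALDH1A2 probes and the brighter ALDH1A3 probe, higher with pre-miR-27a. The same 5 probes had no overlap between the groups of arrays, which makes 3 higher probes of 14, against 14.8% of all probes, and 2 lower ones, against 17.8%. When the replicate number was fitted as a block, 1 of the 14 was called, the brighter CRABP1 probe, against 14.9% of all probes. By the brightest probe of each gene, 3 genes had a positive and 6 a negative difference. The median log2 fold change was −0.25, beside −0.04 over all 27328 gene names, of which 43.7% were positive. The −0.25 is the value of the dim CYP26A1 probe (SE 0.44). Among the negative values, ALDH1A1 turned to 0.13 without pre-control replicate 2, and CYP26B1 to 0.01 with its dropped spot used. RDH10 was at −0.02 (SE 0.20), whereas CRABP1 (−0.69) and DHRS3 (−0.37) stayed negative in every fit. The median thus gives no firm shift of the set. The counts of 0 called probes and, with the block, 1 of 14 were not above the shares of the whole array. Scaling by the 75th percentile of each array instead of quantile normalization left the count at 0, although it moved the higher share of all calls from 50.4% to 39.2%.

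Signals were well above background on all 6 arrays for 10 of the 14 probes and for 7 of the 9 genes by their brightest probe. The 2 other genes were CYP26A1, well above background on 2 pre-control and 3 pre-miR-27a arrays, and ALDH1A1, well above background on 1 array alone. RH36 cells thus gave a measurable signal for both binding proteins, both enzymes of the retinol and retinal step, ALDH1A2, ALDH1A3 and CYP26B1. Each group has 3 arrays, so an exact permutation test cannot give a two-sided p below 0.1. Slide 1 held the pre-control arrays and slide 2 the pre-miR-27a arrays, and the effects of slide and of transfection cannot be told apart in any value below. The lowest probe signal flagged as well above background was 25.6 to 30.2 on pre-control and 11.3 to 16.9 on pre-miR-27a arrays. A dim probe could thus pass on the latter at a signal that failed on the former. The median standard error (SE) of a log2 fold change over all probes was 0.14.

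**Figure D1:**
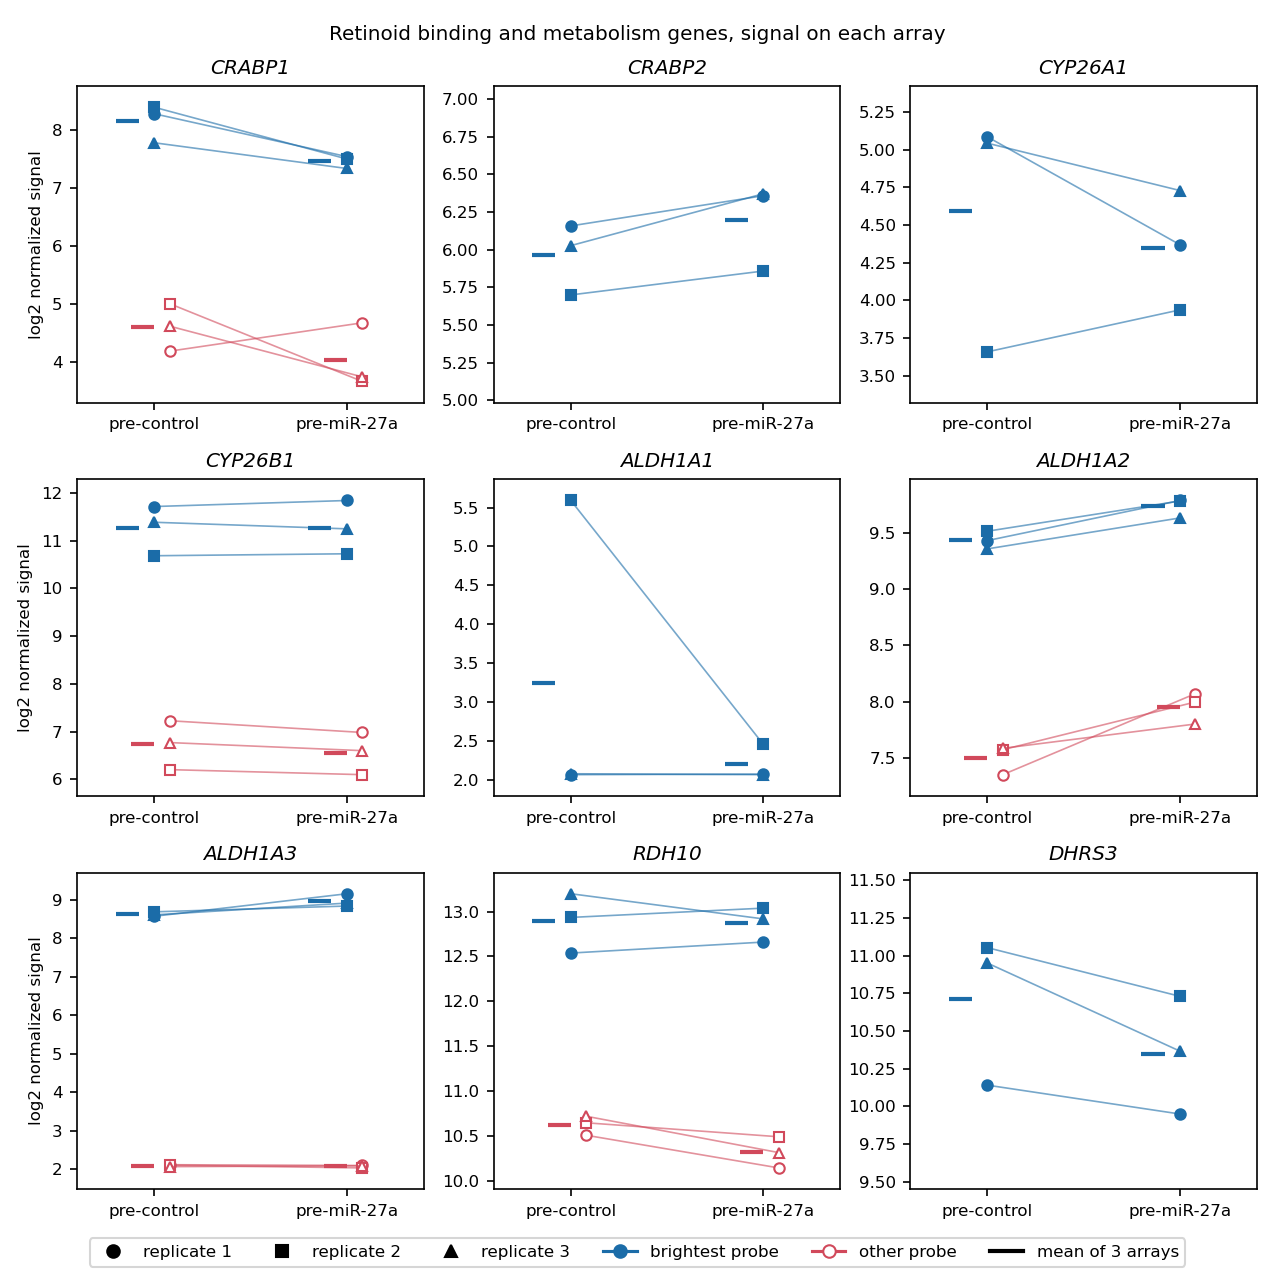
Quantile-normalized log2 signal (vertical axis, a separate range in each panel) of every probe of the 9 genes under pre-control and pre-miR-27a. Each symbol is 1 array, lines join arrays of the same replicate number, short bars are means of 3 arrays, filled blue symbols are the brightest probe of a gene and open red symbols its other probe, with spots not found by the image analysis drawn at their listed value. CRABP1 lines run down from 8.27, 8.39 and 7.77 to 7.54, 7.49 and 7.33, ALDH1A2 lines run up, and CYP26B1 lines are stacked by replicate number.

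CRABP1 and CRABP2 encode the cellular retinoic acid-binding proteins. CRABP1 is a cytosolic carrier of retinoic acid, and CRABP2 is known to deliver it to the receptors in the nucleus. CRABP1 was lower with pre-miR-27a at its brighter probe and the CRABP2 difference was not called.

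The brighter CRABP1 probe (NM_004378; hg18 chr15:76427455-76427514, plus strand) gave processed signals of 341, 311 and 236 on pre-control replicates 1, 2 and 3 and of 182, 171 and 152 on the pre-miR-27a replicates. All pre-miR-27a signals were below all pre-control signals. On the normalized log2 scale the level was 8.14 ± 0.33 (SD, n = 3) with pre-control and 7.45 ± 0.11 (SD, n = 3) with pre-miR-27a. The log2 fold change of −0.69 (SE 0.18, 95% interval −1.13 to −0.25), or 1.61-fold lower, had an adjusted p of 0.078 in limma and was not called. Within replicates 1, 2 and 3 the difference was −0.74, −0.89 and −0.44, and with the replicate block its adjusted p was 0.044 (SE 0.11), so CRABP1 passed the test in the paired comparison. It also passed where only probes well above background on all arrays of a group were tested, with an adjusted p of 0.048. It did not pass after normexp background correction, which gave a smaller log2 fold change of −0.41 (adjusted p 0.088), or as the mean of the gene's probes (adjusted p 0.150). That mean includes the gene's dim other probe, which is placed on the opposite strand and described below. Leaving out 1 array at a time gave −0.88 to −0.57, with adjusted p from 0.052 to 0.203. In RNA of whole cultures, fewer cells with a transcript and less of it per cell cannot be told apart.

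The other CRABP1 probe (AK096006; hg18 chr15:76418842-76418901) is placed on the strand opposite to the gene's other probe, with its start 8613 bases away. It was well above background on 1 pre-control and 2 pre-miR-27a arrays. Its log2 signals were 4.18, 5.00 and 4.62 with pre-control and 4.67, 3.66 and 3.74 with pre-miR-27a, and the groups overlapped. The log2 fold change was −0.58 (SE 0.34, adjusted p 0.371), and it was 0.07 after normexp background correction, so this probe has no stable direction.

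Markers of other cell types were measured beside CRABP1, since some of them were lower on the same arrays. CD14 and CD3E of the blood list, KRT14 of the epithelial list and ADIPOQ of the liver and fat list fell with pre-miR-27a, by 0.71, 0.44, 0.82 and 0.95 on the log2 scale, with limma adjusted p of 0.022, 0.035, 0.029 and 0.032, KRT14 being fitted without pre-miR-27a replicate 3, whose spot was not found. CD14 had no other probe. The other probe of CD3E was at −0.05 (limma adjusted p 0.874). That of ADIPOQ, well above background on 0 of 6 arrays, was at −0.17 (adjusted p 0.718). That of KRT14, well above background on 1 array, had the opposite sign at 1.14. Its adjusted p was 0.379, and 0.033 with the block. Summed processed signals of the 4 blood markers ranged from 368 to 443 with pre-control and from 240 to 261 with pre-miR-27a, those of the 4 epithelial markers from 334 to 369 and from 145 to 190, those of the 3 liver and fat markers from 594 to 734 and from 304 to 333, and those of the 3 endothelial markers from 110 to 237 and from 108 to 115. Of these lists, 2 blood, 1 epithelial, 1 liver and fat and 1 endothelial marker were well above background on all 6 arrays. The defining markers PTPRC, CDH1, EPCAM and PECAM1 were well above background on 0 of 6 arrays. The myogenic list had 9 of 10 markers well above background on all 6 arrays, all but MYF5, with sums of 144052 to 264097 on pre-control and 121522 to 199768 on pre-miR-27a arrays. By their brightest probe 0 of its 9 tested genes were called by limma, against 7.4% of all gene names. With the replicate block 2 of the 9 were called, both lower, against 14.1% of all gene names with the same block. MYOD1 fell by 0.45 on the log2 scale (adjusted p 0.036, against 0.079 without the block) and MYOG by 0.95 (adjusted p 0.033, against 0.140). Both are regulators of muscle differentiation. The other probe of the acetylcholine receptor gene CHRNA1 rose by 0.95 in limma (adjusted p 0.022), against −0.15 at its brightest probe (adjusted p 0.456). The part of these markers, and of the local background (median 74.5 to 76 against 52.5 to 53 intensity units), in the CRABP1 difference was not tested.

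CRABP2 (NM_001878; hg18 chr1:154936203-154936262, minus strand) gave signals of 80.9, 48.5 and 75.1 with pre-control and 80.4, 52.8 and 77.8 with pre-miR-27a. Replicate 2 was the lowest array of both groups, and the groups overlapped. The log2 signals were 6.16, 5.70 and 6.03 against 6.36, 5.86 and 6.37, a log2 fold change of 0.23 (SE 0.19, 95% interval −0.25 to 0.71, adjusted p 0.518). Within replicate numbers it was 0.20, 0.16 and 0.34, and the difference was not called with the block either (SE 0.066, adjusted p 0.096). Leaving out single arrays moved it between 0.10 (without pre-control replicate 2) and 0.40 (without pre-miR-27a replicate 2).

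The enzymes of the retinol and retinal step act in opposite directions. RDH10 is the retinol dehydrogenase that starts retinoic acid synthesis, and DHRS3 reduces retinal back to retinol and is known to be induced by retinoic acid. Neither gene had a called probe.

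RDH10 was measured by 2 probes for NM_172037 on the plus strand of chromosome 8. The brighter one (hg18, 74399014 to 74399073) gave signals of 6584, 8281 and 9974 with pre-control and 6055, 8412 and 6684 with pre-miR-27a. Its log2 levels overlapped at 12.89 ± 0.33 and 12.87 ± 0.19 (SD, n = 3 each), a log2 fold change of −0.02 (SE 0.20, 95% interval −0.51 to 0.47, adjusted p 0.968). Its sign changed when single arrays were left out, between −0.19 and 0.14.

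The other RDH10 probe is listed from 74393943 to 74395739, a span of 1797 bases for a 60-base probe, so its listed ends are not contiguous. Its signals were 1603, 1563 and 1781 with pre-control and 1116, 1432 and 1163 with pre-miR-27a, without overlap. Its log2 values of 10.51, 10.65 and 10.72 against 10.14, 10.49 and 10.31 gave a log2 fold change of −0.31 (SE 0.12, 95% interval −0.60 to −0.01, adjusted p 0.186, and 0.080 with the block). The brighter RDH10 probe thus showed no shift where the split probe was lower on every pre-miR-27a array, and neither passed the test.

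DHRS3 (NM_004753; hg18 chr1:12550697-12550756, minus strand) gave signals of 1251, 2106 and 2080 with pre-control and 976, 1695 and 1208 with pre-miR-27a. Replicate 1 was the lowest and replicate 2 the highest array of each group. The log2 signals were 10.14, 11.05 and 10.95 against 9.95, 10.73 and 10.37, a log2 fold change of −0.37 (SE 0.31, 95% interval −1.14 to 0.41, adjusted p 0.535). All 3 differences within replicate numbers were negative (−0.19, −0.32 and −0.58), and the adjusted p with the block was 0.093. Leaving out single arrays moved the value between −0.65 (without pre-control replicate 1) and −0.17 (without pre-miR-27a replicate 1).

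The retinal dehydrogenases ALDH1A1, ALDH1A2 and ALDH1A3 make retinoic acid from retinal. After quantile normalization, the values of both ALDH1A2 probes and of the brighter ALDH1A3 probe were higher on every pre-miR-27a array than on any pre-control array, by 1.23-fold to 1.37-fold, and none passed the adjusted threshold. ALDH1A1 was near background.

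ALDH1A2 was measured by 2 probes for NM_170697 on the minus strand of chromosome 15. The brighter one (hg18 chr15:56033824-56033883) gave signals of 754, 695 and 690 with pre-control and 872, 871 and 738 with pre-miR-27a, which overlap before normalization and not after it. Its log2 level was 9.44 ± 0.08 against 9.74 ± 0.09 (SD, n = 3 each), a log2 fold change of 0.30 (SE 0.09, 95% interval 0.08 to 0.52), or 1.23-fold. The adjusted p was 0.102, and 0.0503 with the block, just outside the threshold.

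The other ALDH1A2 probe (hg18 chr15:56041514-56041573) gave signals of 184, 177 and 209 with pre-control and 268, 246 and 209 with pre-miR-27a, the 2 values of replicate 3 being nearly equal before normalization. Its log2 values were 7.35, 7.57 and 7.58 against 8.07, 7.996 and 7.80, without overlap, a log2 fold change of 0.45 (SE 0.11, 95% interval 0.17 to 0.74, adjusted p 0.073). After normexp background correction the log2 fold change of 0.41 was called (adjusted p 0.031). Both probes of the gene had the same sign under every alternative tried and with every array left out.

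ALDH1A3 had a bright probe for NM_000693 (hg18 chr15:99274026-99274085, plus strand) with signals of 419, 385 and 415 with pre-control and 572, 454 and 456 with pre-miR-27a. Its log2 values were 8.58, 8.69 and 8.61 against 9.16, 8.84 and 8.92, without overlap and with replicate 1 highest under pre-miR-27a. The log2 fold change was 0.35 (SE 0.11, 95% interval 0.08 to 0.62, adjusted p 0.119, and 0.115 with the block). The other probe (BC009245; hg18 chr15:99239020-99239079) was well above background on 0 of 6 arrays and gives neither a firm level nor a bound on a change.

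ALDH1A1 (NM_000689; hg18 chr9:74705956-74706015, minus strand) was well above background only on pre-control replicate 2. Its signals were 6.24, 45.1 and 5.40 with pre-control and 2.85, 4.17 and 3.62 with pre-miR-27a. The log2 fold change of −1.05 (SE 0.99, adjusted p 0.577) rests on that array, since without it the value was 0.13. No fold is given as a bound.

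**Figure D2:**
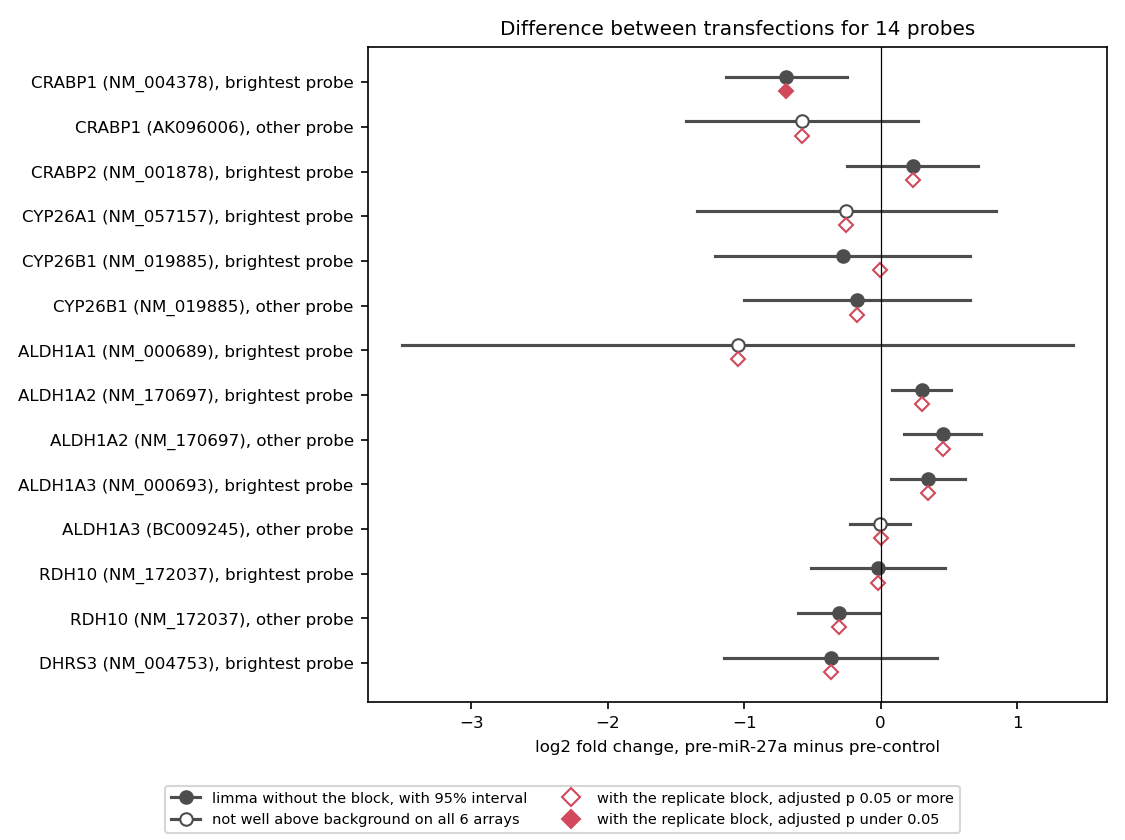
Log2 fold change (horizontal axis, pre-miR-27a minus pre-control) of the 14 probes, with the 95% interval from limma in grey and the value with the replicate block as red diamonds. Filled diamonds have an adjusted p under 0.05, which is the brightest CRABP1 probe alone (−0.69), and the widest interval is that of ALDH1A1 (−3.51 to 1.41).

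CYP26A1 and CYP26B1 encode the hydroxylases that clear retinoic acid, and CYP26A1 is among the genes most strongly induced by it. Neither was called, and their values followed the replicate number more than the transfection.

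CYP26A1 (NM_057157; hg18 chr10:94827003-94827062, plus strand), whose promoter is shown above, was dim. Its signals were 38.6, 11.6 and 39.6 with pre-control and 19.8, 14.01 and 23.7 with pre-miR-27a, and replicate 2 was the lowest array of each group. The log2 fold change was −0.25 (SE 0.44, 95% interval −1.35 to 0.85, adjusted p 0.779), and the interval holds changes of either sign. It was −0.72 without pre-control replicate 2 and −0.0059 without pre-control replicate 1.

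CYP26B1 was measured by 2 probes for NM_019885 on the minus strand of chromosome 2. The brighter one (hg18 chr2:72209987-72210046) gave signals of 3697, 1611 and 2790 with pre-control and 3534, 1690 and 2177 with pre-miR-27a. In both groups replicate 1 was the highest and replicate 2 the lowest. The image analysis flagged the spot of pre-control replicate 2 as not found, although its signal was well above background, so the fit dropped it and compared 2 arrays with 3, for a log2 fold change of −0.28 (SE 0.36, adjusted p 0.694). With that spot used the value was 0.01, so its sign depends on that spot.

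The other CYP26B1 probe (hg18 chr2:72210938-72210997) had the same order of arrays, with log2 values of 7.23, 6.21 and 6.77 under pre-control and 6.98, 6.10 and 6.60 under pre-miR-27a. Its log2 fold change was −0.17 (SE 0.34, 95% interval −1.003 to 0.66, adjusted p 0.801, and 0.133 with the block). The 3 differences within replicate numbers were −0.25, −0.11 and −0.17, smaller than the distance between replicates 1 and 2 in either group.

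The share of each probe's variation that followed the replicate number was then set beside the share that followed the transfection, as parts of the sum of squares over the 6 arrays. This is a description with no test. The replicate number has more levels than the transfection, so noise alone gives it the larger share on average. The replicate number took 98.4% at the brighter CYP26B1 probe (with the spot that the fit dropped included) and 94.8% at the other, 82.4% at the brighter RDH10 probe, 80.1% at CYP26A1, 76.0% at DHRS3 and 74.8% at CRABP2. The transfection took 82.9% and 80.7% at the ALDH1A2 probes, 75.2% at the brighter CRABP1 probe, 74.3% at the brighter ALDH1A3 probe and 63.1% at the split RDH10 probe. Of the 10 probes well above background on all arrays, 5 varied more with the replicate number, and so did 54.5% of the 27056 such probes on the array. The replicate number is also the position on the slide, and which of these the shares follow cannot be told apart.

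**Figure D3:**
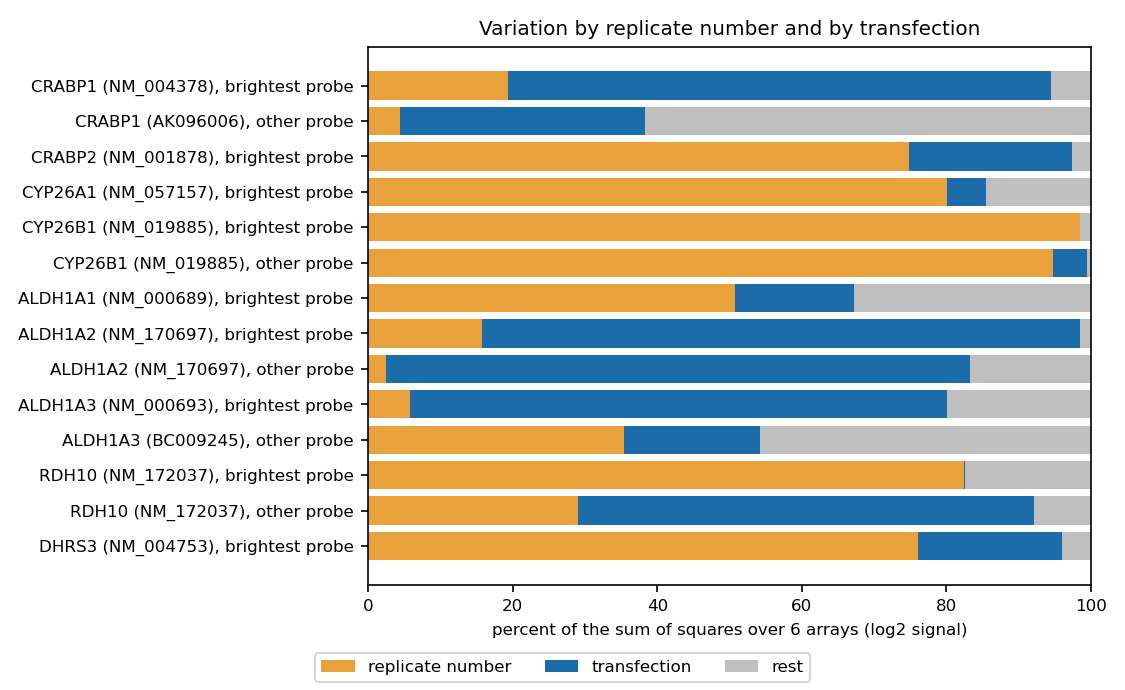
Percent of each probe's sum of squares over the 6 arrays (horizontal axis, log2 signal) that followed the replicate number (orange), the transfection (blue) and neither (grey). CYP26B1, CYP26A1, DHRS3, CRABP2 and the brightest RDH10 probe are mostly orange (74.8% to 98.4%), and ALDH1A2, the brightest CRABP1 and ALDH1A3 probes and the other RDH10 probe are mostly blue (63.1% to 82.9%).

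The rest of the retinoid pathway was read from 5 lists of 54 genes, of which 46 were tested. By the brightest probe, 2 rose and 4 fell, which is 13.0%, against 7.4% of all gene names, and 21 differences were positive and 25 negative, with a median log2 fold change of −0.07. With the replicate block 7 of the 46 were called, against 14.1% of all gene names with the same block.

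Among the nuclear receptors, 1 of 6 rose and 1 fell. RARA, the alpha form of the retinoic acid receptor, had log2 signals of 12.78, 12.83 and 12.89 with pre-control and 12.27, 12.24 and 12.30 with pre-miR-27a at its brighter probe, and it fell by 0.56 (SE 0.07, adjusted p 0.020). Its other probe fell by 0.60 (adjusted p 0.022). RXRA, the alpha form of the partner receptor, had log2 signals of 11.66, 11.46 and 11.43 with pre-control and 12.24, 12.20 and 11.96 with pre-miR-27a at its brighter probe, which rose by 0.62 (SE 0.12, adjusted p 0.038). The other RXRA probe had the opposite sign, at −0.21 (adjusted p 0.326), so the 2 probes of RXRA disagree. The other receptors were not called, with log2 fold changes of 0.25 (SE 0.24) for RARB, −0.10 (SE 0.15) for RARG, whose other probe had the opposite sign at 0.09, 0.16 (SE 0.13) for RXRB and 0.32 (SE 0.62) for RXRG.

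Of the genes known to respond to retinoic acid, 1 of 11 tested was called. RARRES3, a growth regulator named for its induction by retinoids, had log2 signals of 8.72, 8.93 and 8.81 with pre-control and 8.04, 8.07 and 8.15 with pre-miR-27a, and fell by 0.74 (SE 0.09, adjusted p 0.018). The other 10 included 3 positive and 7 negative differences, and the median of the list was −0.17.

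Of the other retinol and retinal enzymes, 1 of 17 tested was called. ADH1C, an alcohol dehydrogenase that can oxidize retinol, had log2 signals of 6.11, 6.33 and 6.26 with pre-control and 5.26, 5.69 and 5.40 with pre-miR-27a, and fell by 0.79 (SE 0.14, adjusted p 0.031). It belongs to a family of near-identical genes, and a signal shared with them was not tested. ALDH8A1, which can oxidize retinal, was called higher with the block alone (adjusted p 0.034, against 0.099 without it). It was well above background on 0 pre-control and 3 pre-miR-27a arrays and was fitted without pre-control replicate 2, whose spot was not found, so no fold is given.

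Of the 9 tested genes of uptake, storage and precursor cleavage, 1 rose and 1 fell. DGAT1, which esterifies fats and retinol, had log2 signals of 11.98, 12.18 and 12.16 with pre-control and 11.57, 11.70 and 11.72 with pre-miR-27a, and fell by 0.44 (SE 0.09, adjusted p 0.049). RBP7, a retinol-binding protein, was called higher (adjusted p 0.047, fitted without pre-miR-27a replicate 2, whose spot was not found), but it was well above background on 0 of 6 arrays and lost the call with the block (adjusted p 0.076), so no fold is given. STRA6, the retinol uptake receptor, was measured on all arrays and gave −0.31 (SE 0.14, adjusted p 0.252).

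Of the other genes of retinoic acid oxidation and delivery, 0 of the 3 tested were called by limma. FABP5, which carries retinoic acid and fatty acids to the receptor PPARD, had a log2 fold change of −0.51 (SE 0.18, adjusted p 0.162) and was called with the block (adjusted p 0.037). Its 3 other probes had the same sign, from −0.41 to −0.28.

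**Figure D4:**
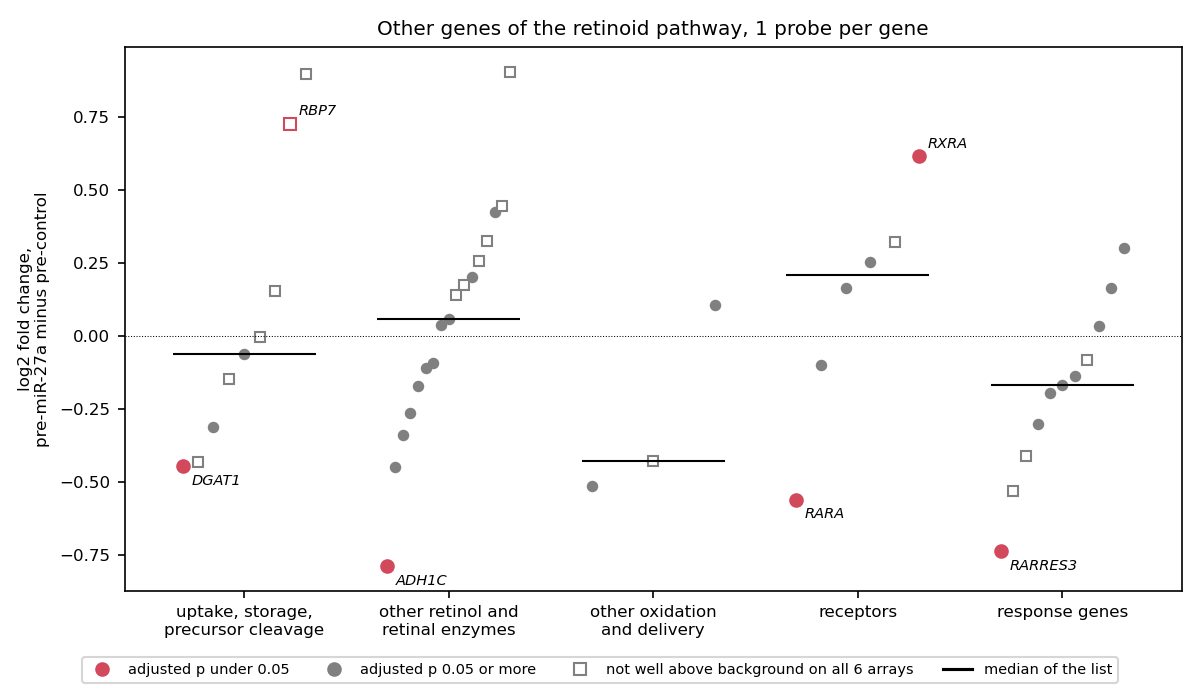
Log2 fold change (vertical axis, pre-miR-27a minus pre-control) of the 46 tested genes of the 5 lists, 1 symbol per gene by its brightest probe, sorted within each list. Red symbols have a limma adjusted p under 0.05 and are named, squares were not well above background on all 6 arrays, and horizontal bars are list medians, which run from −0.43 (oxidation and delivery) to 0.21 (receptors). The −0.43 is the value of CYP2S1 alone (SE 0.45), which was well above background on 0 of 6 arrays. Its log2 signal was 3.39 on pre-control replicate 2 and 2.07 to 2.12 on the others, so this bar gives no firm change.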

How the data were processed

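RH36 cells were profiled on 6 one-colour arrays, 3 per transfection. The authors deposited Feature Extraction 10.5.1.1 processed intensity per spot, background-subtracted within the array and not normalized between arrays, with local background and flags, and a table of quantile-normalized log2 values. Per-sample columns that were not used numbered 0. Probe positions are those of the files (hg18), and no genome of that build was used.

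As in the study, log2 intensity of non-control spots was quantile normalized and replicate spots were averaged. Spots not found were set to missing and probes missing on more than 1 array (17%) were removed. The study's methods name this flag but describe it as a difference from the local background, and the flag for a positive and significant signal, an alternative here, keeps 33189 probes, nearer to the 33169 of the deposited table. Of 43376 spots, 69.9% to 73.9% (pre-control) and 74.1% to 78.0% (pre-miR-27a) were well above background, 0 were saturated, and 1559 to 1750 against 3487 to 4153 were not found. R 4.3.3 with limma 3.58.1 (and data.table, version 1.17.8) compared the groups on all 36469 probes, with a threshold of 0.05. SAM at the study's 1.9% was an alternative, unpaired (20 relabellings) and, since the study's text names both a two-class and a paired form, paired (8 sign changes). The code was tested on simulated data.

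Same-numbered arrays deviated together from their group means (correlation 0.40, 0.46 and 0.41 over 31717 probes), so the numbers, which the labels give and which are also slide positions, were taken to pair the arrays. Between different numbers the correlations were −0.27 to −0.12. Deviations from a group mean cancel within the group, so these negative values follow from the positive ones and add no separate evidence. Blocked values are printed where the call of a gene's brightest probe changed, and for most of the 9 genes. The number of arrays limits the precision.

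All 9 genes are named, from the other lists the called genes, the receptors and genes called with the block alone. The last of these, STRA6 and CYP2S1 were added after their values were seen. Genes were read by their brightest probe, and other probes are given for the 9 genes and, where they differ, for the others named. The genes and lists were chosen with earlier results of these data known. Alternatives were 75th percentile scaling, normexp (offset 50), other filters and values, a variance trend, the block, SAM, the mean of a gene's probes and leaving out each array.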

Additional observations from a re-analysis of the deposited data

How the results depend on the processing

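With every array kept, the count of 0 called probes among the 14 became 1 after normexp background correction (an ALDH1A2 probe), 1 with the filter on probes well above background (CRABP1, of 11 tested) and 1 with the replicate block (CRABP1), and stayed 0 elsewhere and, without any single array, from 0 to 0. The block, which pairs same-numbered arrays, gave 5421 called probes over the whole array in place of 2856, and SAM gave 9 unpaired and 3 paired, the latter an alternative chosen after seeing the data. Leaving out 1 array at a time gave from 0 to 1276 called probes, namely 1276 without pre-control replicate 1, 81 without pre-control replicate 3 and 0 without any other array, with 7178 to 8636 at an unadjusted p under 0.05. Calls in the pathway lists ranged from 4 to 7 with every array and from 0 to 2 without an array (2 without pre-control replicate 1 and 0 without any other). The genes tested numbered 46, but 33 with the filter on probes well above background. They numbered 36 with the positive and significant flag and in the deposited values. No pathway gene thus kept its call in every fit. The calls of the whole array fell to 0 in most of these fits too, so the loss cannot show whether a pathway call rests on a single array. Signs turned for the dim CRABP1 probe after normexp (0.075) and for the brighter CYP26B1 probe without the filter, with the filter on probes well above background and on the positive and significant flag (0.010 each) and in the deposited values (0.0085). Leaving out single arrays gave from −1.64 to 0.13 for ALDH1A1, −0.019 to 0.0059 for the dim ALDH1A3 probe (but −0.73 with 75th percentile scaling and −0.15 with normexp, neither called), −0.44 to 0.074 for the other CYP26B1 probe and −0.19 to 0.14 for the brighter RDH10 probe. Among the other alternatives for the 14 log2 fold changes, 192 kept their direction and side of the threshold and 3 became called. The causes were not tested. Probes not well above background on all arrays (CYP26A1, ALDH1A1 and the dim probes of CRABP1 and ALDH1A3) give no firm level.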
